A study of Mus musculus with 12 samples.

Results

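Zfp352, Tcstv1, Tmem92, Tdpoz4, Spz1, D13Ertd608e, AF067061 and Spopfm1 are genes of the mouse 2-cell embryo that lie outside the Zscan4 family. They were chosen by name, with their levels in these libraries known, and made up 8 of the 20529 genes in the deposited table. The table's own symbols gave 7 of them, and D13Ertd608e, whose symbol cell was blank, was found through its Ensembl identifier in GENCODE M21. All their levels and differences are therefore given as descriptions, with no test.

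The cells were 129S6/SvEvTac mouse embryonic stem cells, kept on gelatin in medium with serum and LIF, which carried the reporter GFP_5xT71BS and, per the growth protocol, a stably transfected FLAG-Cas9::T2A::Blasticidin construct. The 12 libraries formed 4 groups of 3: Cas9 control, Cas9 Trim71-/-, Tnrc6a control and Tnrc6a Trim71-/-. Tnrc6a (GW182) is the scaffold protein that Argonaute uses to silence microRNA targets, and Trim71 (LIN41) is an RNA-binding protein of stem cells and early embryos. The labels do not name the promoter that drove Tnrc6a or say whether each line was 1 clone. The replicates are triplicate wells, so all p-values measure the spread between wells, which may be technical.

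The groups follow the titles. For 9 libraries the input description disagrees with the title, adding HA-AVI-Tnrc6a in the Cas9 Trim71-/- libraries, HA-AVI-Tnrc6a with Ago2-/- in the Tnrc6a control libraries and HA-AVI-Tnrc6a with Upf1-/- in the Tnrc6a Trim71-/- libraries. Tnrc6a RNA stood at 132 ± 1.31 CPM (counts scaled to library size, mean ± SD, n = 3) in Cas9 control, 145 ± 9.79 in Cas9 Trim71-/-, 3317 ± 120 in Tnrc6a control and 3622 ± 126 in Tnrc6a Trim71-/-, which follows the titles. Trim71 RNA was 306 ± 14.2, 275 ± 14.2, 264 ± 11.9 and 240 ± 9.13 CPM in the same order, so its level does not check the genotype. Ago2 RNA was 280 ± 37.4 CPM in Tnrc6a control against 332 ± 22.5 in Cas9 control, and Upf1 RNA was 230 ± 1.88 CPM in Tnrc6a Trim71-/- against 242 ± 7.58 in Cas9 Trim71-/-. These RNA levels do not check for a knockout of Ago2 or Upf1 either. If the input descriptions hold, effects of Tnrc6a and of losing Ago2 or Upf1 cannot be told apart. Library totals ran from 20758151 to 31552915 counts.

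A small share of mouse embryonic stem cells in culture passes at any time through a state that resembles the 2-cell embryo, in which genes of zygotic genome activation and some endogenous retroviruses are transcribed. Zscan4, Zfp352, the Tcstv genes and the Tdpoz and Spopfm genes are used as markers of that state. Many of them are members of rodent gene families that sit in tandem clusters, and several of their transcripts carry retroviral or short interspersed repeat sequence.

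The 8 genes fall into 5 genomic settings (GRCm38). Tcstv1 (chr13:119893388-119894785, minus strand), D13Ertd608e (chr13:119836006-119846570, plus strand) and AF067061 (chr13:120263114-120264517, plus strand) lie in the Tcstv cluster. Tdpoz4 (chr3:93796398-93797510, plus strand) and Spopfm1 (chr3:94264036-94266784, plus strand) lie in the Tdpoz and Spopfm cluster. Zfp352 (chr4:90218820-90225702, plus strand), Tmem92 (chr11:94777217-94782703, minus strand) and Spz1 (chr13:92574636-92576172, minus strand) stand in 3 other places. No exon of any of the 8 overlapped an exon of another GENCODE gene.

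The sequences below show how close the family members are, which bears on how reads could be assigned to them. They are the first 120 coding bases of the 3 genes of the Tcstv cluster (GENCODE M21), with capitals at bases that differ from Tcstv1. Tcstv1 is read from chr13:119893975-119894094, minus strand, AF067061 from chr13:120263802-120263921, plus strand, and D13Ertd608e from chr13:119846072-119846191, plus strand.
Tcstv1: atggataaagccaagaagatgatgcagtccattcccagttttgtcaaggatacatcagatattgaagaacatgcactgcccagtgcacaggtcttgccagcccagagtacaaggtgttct
AF067061: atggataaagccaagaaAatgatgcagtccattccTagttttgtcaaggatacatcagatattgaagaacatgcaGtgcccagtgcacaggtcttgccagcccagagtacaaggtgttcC
D13Ertd608e: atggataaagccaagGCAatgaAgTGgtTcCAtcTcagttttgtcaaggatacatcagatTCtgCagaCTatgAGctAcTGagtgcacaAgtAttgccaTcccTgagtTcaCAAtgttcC
AF067061 differed from Tcstv1 at 4 of these 120 bases and D13Ertd608e at 29. Over the aligned coding sequence, Tcstv1 and AF067061 were 95.3% identical over 513 bases. D13Ertd608e was 81.5% identical to Tcstv1 over 453 bases, and 99.8% identical to the predicted gene Gm21762.

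The first 120 coding bases of the pair from the chromosome 3 cluster are shown in the same way, with capitals at bases of Spopfm1 that differ from Tdpoz4. Tdpoz4 is read from chr3:93796398-93796517, plus strand, and Spopfm1 from chr3:94265699-94265818, plus strand.
Tdpoz4: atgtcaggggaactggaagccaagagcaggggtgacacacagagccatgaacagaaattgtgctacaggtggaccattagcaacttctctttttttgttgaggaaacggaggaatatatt
Spopfm1: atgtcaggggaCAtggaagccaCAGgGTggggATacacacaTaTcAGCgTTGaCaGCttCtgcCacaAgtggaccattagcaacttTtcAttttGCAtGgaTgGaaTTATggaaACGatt
The pair differed at 38 of the 120 bases and was 80.5% identical over 1076 aligned coding bases. Each was closer to other genes of its cluster: Tdpoz4 was 94.2% identical to Tdpoz8 over 954 bases, and Spopfm1 was 93.0% identical to Spopfm2 over 1070. Spop, the widely expressed relative of both genes, was 73.7% identical to Tdpoz4 and 73.5% to Spopfm1.

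The sources used here do not say how multiply mapping reads were counted, so the genes were ranked by the share of their 50-base stretches that recur, on either strand, in GENCODE transcripts of another gene. That share was 89.6% for D13Ertd608e, all of it with Gm21762. It was 41.2% for Tdpoz4, 23.4% for AF067061, 15.0% for Tcstv1, 10.3% for Spopfm1, 7.09% for Zfp352 and 1.93% for Tmem92. Spz1 shared none of its 1488 stretches. The count of D13Ertd608e is therefore the least certain of the 8, and part of its reads may belong to Gm21762, while that of Spz1 has no such limit.

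Promoter windows of 4 of the 8 genes were in the RefSeq table (GRCm38.p6), and the 250 bases before the annotated start are printed for Zfp352 and AF067061 because both hold repeats of TAATCC, the letters bound by homeodomain proteins of the OTX class. Capitals mark TAATCC or its reverse complement. The Zfp352 window is chr4:90218570-90218819, plus strand, and the AF067061 window is chr13:120262845-120263094, plus strand.
Zfp352: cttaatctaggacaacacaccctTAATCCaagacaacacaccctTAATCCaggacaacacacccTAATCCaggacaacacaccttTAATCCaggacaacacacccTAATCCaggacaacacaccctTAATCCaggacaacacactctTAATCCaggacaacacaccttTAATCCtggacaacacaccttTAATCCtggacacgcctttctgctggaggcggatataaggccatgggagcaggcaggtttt
AF067061: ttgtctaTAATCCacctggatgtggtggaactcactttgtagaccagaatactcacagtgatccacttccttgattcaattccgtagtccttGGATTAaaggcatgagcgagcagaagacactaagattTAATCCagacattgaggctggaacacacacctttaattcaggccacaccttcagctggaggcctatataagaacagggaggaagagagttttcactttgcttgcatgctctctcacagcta
Zfp352 held 9 matches, more than any other of the 32851 windows in the table: 0.00304% of windows reached that number. AF067061 held 3 matches, a number reached by 0.0244% of windows, while 6.25% of all windows held at least 1. Both windows also held TATAA (searched on both strands, present in 22.8% of windows). Its last match began 28 bases before the start in Zfp352 and 56 bases before it in AF067061. AF067061 held 2 matches of TATAA, of which 1 overlapped a TAATCC, and the 1 match in Zfp352 overlapped none. The windows of Tdpoz4 and Spz1 held neither run of letters, and the annotated start of Tdpoz4 is its start codon. The window of Gm21761, a neighbour of Tcstv1 in the same family, was 92.4% identical to that of AF067061 and held 1 match of TAATCC. The motifs were chosen after the windows had been seen, and a match is a run of letters, not a shown binding site.

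Summed over the 8 genes, the level was 2.54 ± 0.161 CPM (n = 3) in Cas9 control, from 183 counts in all. It was 68.1 ± 2.23 CPM in Tnrc6a control, from 5900 counts. In the Trim71-/- libraries the sum was 0.285 ± 0.113 CPM with Cas9, from 21 counts, and 22.6 ± 1.59 CPM with Tnrc6a, from 1813 counts. The 8 genes were thus near the detection limit in the libraries without Tnrc6a. Their sum was lower in Trim71-/- than in control under both constructs. With Cas9 this did not hold for each gene: Spz1 had 2 counts in Trim71-/- and 1 in control. In bulk RNA, fewer cells of a type and less RNA per cell cannot be told apart.

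All 8 genes passed the filter on low counts, which a gene can pass through the Tnrc6a groups alone. In control cells, all 8 had their 3 Tnrc6a libraries above their 3 Cas9 libraries, as 32.6% of all 20486 tested genes did. In Trim71-/- cells, all 8 did so again, against 33.3% of tested genes. Trim71-/- libraries lay below control libraries with no overlap for 5 of the 8 genes with Cas9, against 22.6% of tested genes, and for all 8 with Tnrc6a, against 23.9%. The names were chosen with these contrasts known, so nothing is read from these counts.

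**Figure D1:**
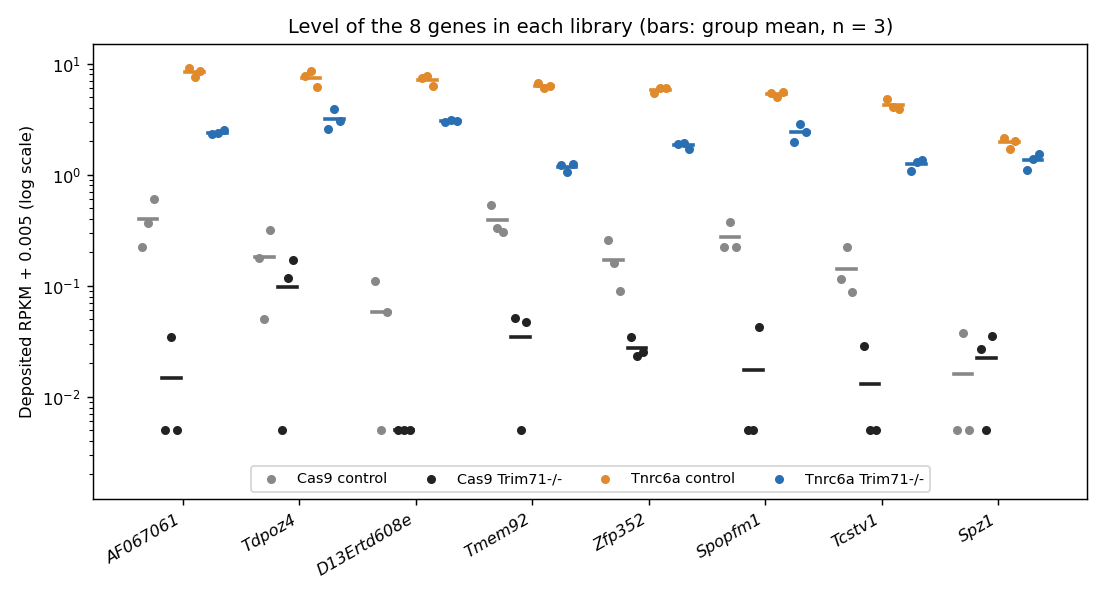
Deposited RPKM plus 0.005 on a log axis for each of the 8 genes, ordered by level in Tnrc6a control. Points are libraries, bars are group means (n = 3), and points at 0.005 are libraries with 0 counts. Orange (Tnrc6a control) and blue (Tnrc6a Trim71-/-) points lie above grey and black (Cas9) points for every gene, and blue lies below orange for every gene, by least for Spz1.

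Tcstv1, reported to lengthen telomeres when overexpressed in mouse embryonic stem cells, had 4, 6 and 3 counts in the Cas9 control libraries and 193, 159 and 163 in the Tnrc6a control libraries. With Cas9 in Trim71-/- cells it had 1, 0 and 0 counts, and with Tnrc6a 42, 49 and 48. It was therefore present in all libraries with Tnrc6a, at about the same level in the 3 wells of each group. The difference between Tnrc6a and Cas9 in control was 4.99 on the log2 scale (SE 0.28), a 31.9-fold change. With Tnrc6a, the Trim71-/- libraries were lower by a log2 fold change of -1.77 (SE 0.18).

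AF067061, a gene of the same family, had 8, 10 and 22 counts in Cas9 control and 371, 298 and 362 in Tnrc6a control. In Trim71-/- cells it had 0, 1 and 0 counts with Cas9 and 90, 90 and 89 with Tnrc6a. Its log2 fold change was 4.40 (SE 0.20) for Tnrc6a against Cas9 in control and -1.82 (SE 0.14) for Trim71-/- against control with Tnrc6a. The latter lies within the standard errors of that of Tcstv1.

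D13Ertd608e, which GENCODE annotates as protein coding and RefSeq as a noncoding RNA, had 2, 0 and 1 counts in Cas9 control and 154, 157 and 138 in Tnrc6a control, a ratio of 124 after scaling (95% counting interval 42.1 to 602; 6.95 on the log2 scale, and 7.88 without Cas9 control replicate 1). In Trim71-/- cells it had 0 counts in each of the 3 Cas9 libraries and 60, 61 and 56 with Tnrc6a. A floor of 3 counts over the Cas9 group gave a bound of 55.6-fold, with the Tnrc6a counts taken as fixed. On the log2 scale this was 5.80, and 5.08 without Cas9 Trim71-/- replicate 1, which leaves a smaller total. The 95% counting interval, which covers both groups, began lower, at 44.8-fold. With Tnrc6a, Trim71-/- against control was -1.23 (SE 0.18), a smaller fall than those of Tcstv1 and AF067061. Gm21762, nearly identical in sequence, stood at 5.07 CPM in Tnrc6a control and 2.40 CPM in Tnrc6a Trim71-/-, a log2 fold change of -1.08 (edgeR quasi-likelihood test, adjusted p = 1.00e-05). Reads of both genes may be shared, so the likeness of their changes is no separate observation.

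The chromosome 3 pair encodes proteins with the MATH and BTB folds of Spop, a substrate adaptor of Cullin 3 ubiquitin ligases. Tdpoz4 had 5, 1 and 9 counts in Cas9 control and 246, 264 and 208 in Tnrc6a control. It had 0, 3 and 4 counts in Cas9 Trim71-/- and 79, 117 and 86 in Tnrc6a Trim71-/-. With Cas9, its control and Trim71-/- libraries overlapped. Tnrc6a against Cas9 was 5.28 (SE 0.30) in control and 5.17 (SE 0.39) in Trim71-/- cells on the log2 scale, and Trim71-/- against control was -1.24 (SE 0.17) with Tnrc6a. Few Cas9 counts carry the first pair of values: the change in control was 5.94 without Cas9 control replicate 3, and that in Trim71-/- cells 4.48 without Cas9 Trim71-/- replicate 1 and 5.87 without replicate 3.

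Spopfm1, annotated as protein coding by GENCODE and as a pseudogene by RefSeq, had 7, 9 and 7 counts in Cas9 control and 193, 173 and 208 in Tnrc6a control. In Trim71-/- cells it had 0, 0 and 1 counts with Cas9 and 67, 96 and 76 with Tnrc6a. Its log2 fold change for Tnrc6a over Cas9 was 4.34 (SE 0.25) in control, and that for Trim71-/- against control with Tnrc6a was -1.15 (SE 0.16). In Tnrc6a Trim71-/- the coefficient of variation of the CPM between wells was 21.0% for Tdpoz4 and 18.7% for Spopfm1.

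Zfp352, a zinc finger protein gene widely used as a marker of the 2-cell stage, had 15, 7 and 5 counts in Cas9 control, 2, 1 and 1 in Cas9 Trim71-/-, 356, 380 and 415 in Tnrc6a control and 120, 118 and 98 in Tnrc6a Trim71-/-. None of the 4 groups overlapped in CPM. The log2 fold change of Tnrc6a against Cas9 was 5.12 (SE 0.20) in control and 6.18 (SE 0.34) in Trim71-/- cells. That of Trim71-/- against control was -2.73 (SE 0.60) with Cas9, where the Trim71-/- group held 4 counts in all, and -1.66 (SE 0.13) with Tnrc6a.

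Tmem92, a predicted transmembrane protein gene whose function is little known, had 30, 14 and 17 counts in Cas9 control, the highest total of the 8 in that group. In Cas9 Trim71-/- it had 3, 0 and 2 counts. With Tnrc6a it had 421, 367 and 414 counts in control and 74, 63 and 69 in Trim71-/- cells. For Tnrc6a against Cas9 in control the log2 fold change of Tmem92 was 4.02 (SE 0.17), the lowest of the fitted 6 genes, though without Cas9 control replicate 1 it was 4.34, above Spopfm1 (4.22) and AF067061 (4.08). Its log2 fold change in Trim71-/- cells was -2.43 (SE 0.14) with Tnrc6a, the largest fall of the 8, and -3.59 (SE 0.49) with Cas9, the largest of the 3 genes with enough counts for a fit there.

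Spz1, a transcription factor gene of the basic helix-loop-helix zipper class known from the testis, stood at the other end. It had 0, 1 and 0 counts in Cas9 control, 1, 0 and 1 in Cas9 Trim71-/-, 95, 73 and 92 in Tnrc6a control and 47, 58 and 60 in Tnrc6a Trim71-/-. The ratio of Tnrc6a to Cas9 in control was 215, with a counting interval of 38.2 to 8521 that shows how little 1 count can fix. On the log2 scale this ratio was 7.75, it was 7.10 without Cas9 control replicate 1 or 3, and without replicate 2, which held that count, the floor of 3 counts gives a bound of 5.70. With Cas9, neither genotype had enough counts for a fold change. With Tnrc6a, Trim71-/- against control was -0.54 (SE 0.21), the smallest fall of the 8.

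Per length, the genes were of similar abundance in Tnrc6a control. The deposited RPKM ran from 8.45 ± 0.785 for AF067061 through Tdpoz4 (7.47 ± 1.18), D13Ertd608e (7.17 ± 0.761), Tmem92 (6.33 ± 0.336) and Zfp352 (5.83 ± 0.337) to Spopfm1 (5.32 ± 0.284), with each neighbour in that order overlapping the next. Tcstv1 (4.25 ± 0.489) and Spz1 (1.95 ± 0.224) followed, each below the gene before it in every well. At these levels AF067061 exceeded 66.2% of all genes in the table and Spz1 37.0%.

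The order changed in Tnrc6a Trim71-/- cells. Tdpoz4 (3.16 ± 0.662 RPKM) and D13Ertd608e (3.04 ± 0.0565) now led, followed by Spopfm1 (2.40 ± 0.450), AF067061 (2.39 ± 0.0969) and Zfp352 (1.83 ± 0.120). Spz1 (1.34 ± 0.221), Tcstv1 (1.24 ± 0.141) and Tmem92 (1.17 ± 0.0996) came last and overlapped one another. Tmem92 moved from the fourth place to the last. In the Cas9 libraries the RPKM of all 8 genes were at most 0.605 in any library, and no neighbours in the order were separated.

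By the share of the Tnrc6a control level left in Tnrc6a Trim71-/- cells, the genes are listed in 4 tiers whose wells did not overlap. The tiers were drawn after these values were seen. Tmem92 kept 18.5% ± 1.57. AF067061 (28.3% ± 1.15), Tcstv1 (29.2% ± 3.32) and Zfp352 (31.5% ± 2.06) formed the next tier, with wells from 25.5% to 32.7%. Tdpoz4 (42.3% ± 8.87), D13Ertd608e (42.5% ± 0.788) and Spopfm1 (45.1% ± 8.46) lay between 34.3% and 53.5%, and Spz1 kept 69.0% ± 11.4, with wells from 56.6% to 79.0%. In this listing D13Ertd608e stood with the chromosome 3 pair and not with Tcstv1 and AF067061, though part of its reads may belong to Gm21762. These shares take the Tnrc6a control mean as fixed, and its own spread is not in the error. The gap from 32.7% to 34.3% is small beside the SD of Tdpoz4, so that border between tiers is not firm.

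**Figure D2:**
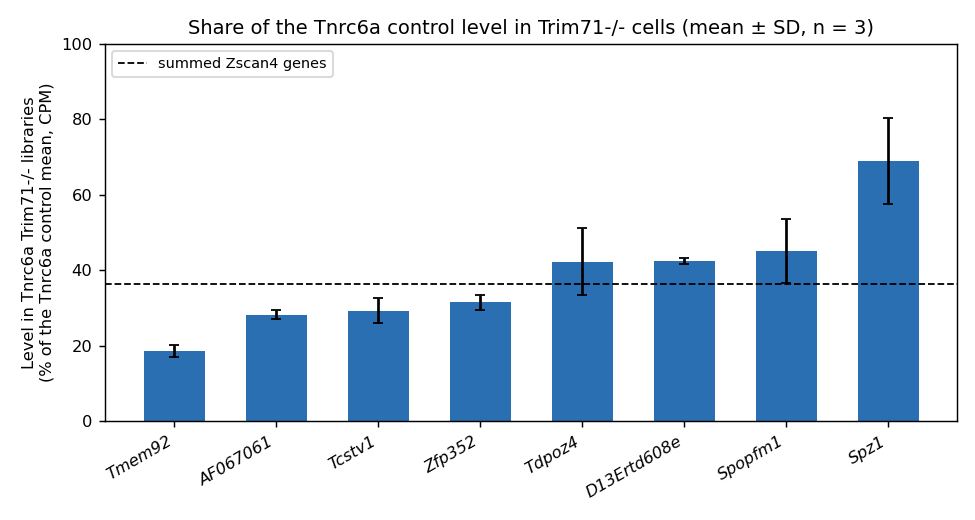
CPM in each Tnrc6a Trim71-/- library as a percentage of the Tnrc6a control mean, for the 8 genes. Bars are means with SD (n = 3), and the dashed line is the same share for the 6 Zscan4 genes summed, 36.5%. Tmem92 is lowest at 18.5% and Spz1 highest at 69.0%.

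The composition of the summed level shifted accordingly. Tmem92 gave 20.4% ± 0.641 of the 8 genes' counts in Tnrc6a control and 11.4% ± 1.60 in Tnrc6a Trim71-/-. Spz1 gave 4.39% ± 0.429 and 9.11% ± 1.11. Zfp352 gave nearly the same share in both, 19.5% ± 1.74 and 18.6% ± 1.98. In Cas9 control, with 183 counts over the 3 libraries, Tmem92 gave 32.7% ± 8.41, and no share of Cas9 Trim71-/- is given because that group held 21 counts.

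The 6 Zscan4 genes summed to 33.2 ± 1.48, 2.90 ± 0.648, 716 ± 18.1 and 261 ± 7.72 CPM in Cas9 control, Cas9 Trim71-/-, Tnrc6a control and Tnrc6a Trim71-/-. The 8 genes amounted to 7.67% ± 0.713, 10.7% ± 6.64, 9.51% ± 0.114 and 8.68% ± 0.765 of that sum in the same order, so their ratio to Zscan4 differed far less between groups than either level did.

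Family mates of the 8 genes that are not among them were tested in the fit over all genes. Of 35 names searched, 19 were in the table and all were tested. With Tnrc6a in control cells 17 of the 19 rose and 1 fell (edgeR quasi-likelihood test, adjusted p under 0.05, at which 30.4% of all tested genes were called higher and 33.1% lower). The median log2 fold change of the list was 4.46, against -0.02 for all genes. Nearly all the risers were Tcstv, Tdpoz and Spopfm genes, and 9 of the 19 genes had at most 3 counts in 1 of the groups. A family mate too can pass the filter on low counts through the Tnrc6a groups alone. Such a gene could hardly be called lower with Tnrc6a, so the count of risers is a description. Gm21761, a predicted gene of the Tcstv family, increased from a level of 0.920 to 28.2 CPM (4.93 on the log2 scale, SE 0.15, adjusted p = 3.12e-29), Tdpoz8 from 1.15 to 18.9 CPM (4.0, SE 0.14, adjusted p = 1.71e-26) and Gm20767 from 0.607 to 12.7 CPM (4.46, SE 0.22, adjusted p = 1.14e-18).

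The ubiquitous relatives did not rise. Spop, the substrate adaptor itself, went from 74.7 to 63.8 CPM, a log2 fold change of -0.23 (SE 0.05, edgeR adjusted p = 4.42e-05). Spopl, its close relative, stood at 21.4 and 21.1 CPM and did not pass the test (-0.02, SE 0.07, adjusted p = 0.821).

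In Trim71-/- cells 17 of the 19 rose with Tnrc6a as well, where 32.0% of all genes were called higher and 30.9% lower. There 8 of the 19 had 0 counts in the Cas9 group, and the list's median log2 fold change was 4.14 with those genes set at the bound that a floor of 3 counts gives. The count of 17 was 11 with a filter of at least 1 CPM in at least 3 libraries, and 10 when the fit used the compared groups alone. The limit from the filter on low counts holds here as well. Gm21761 went from 0.0403 to 8.20 CPM and Tcstv3, a telomere-lengthening relative of Tcstv1, from 0.0685 to 3.25 CPM.

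Between genotypes, 14 of the 19 family mates fell in Trim71-/- cells with Tnrc6a and 1 rose, where 19.0% of all genes were called lower and 20.0% higher (median log2 fold change -1.21, all genes 0.00). The riser was Spopl (0.20, SE 0.07, edgeR adjusted p = 0.0176), and no family mate was called higher by DESeq2 or without Tnrc6a control replicate 1 or 2 or Tnrc6a Trim71-/- replicate 1 or 3. Gm21761 fell by 1.78 (SE 0.10, adjusted p = 5.48e-19), Gm20767 by 1.61 (SE 0.15, adjusted p = 6.67e-11) and Tdpoz8 by 1.04 (SE 0.10, adjusted p = 8.97e-12) on the log2 scale. With Cas9, 7 of the 19 fell, where 19.1% of all genes were called lower and 17.1% higher, and the count was 3 when the fit used those groups alone. The 12 not called there were mostly at a few counts: 15 of the 19 genes had at most 3 counts in a group.

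Other genes reported as markers or activators of the 2-cell-like state, 42 in the table of 53 names, are the wider group. With Tnrc6a, 35 of the 42 rose and 4 fell in control cells (edgeR, median 3.99). Of all tested genes, 30.4% were called higher there and 33.1% lower (median -0.02). In Trim71-/- cells 35 rose and 4 fell with Tnrc6a (median 3.93 with genes at 0 counts set at their bound). The shares of all genes were 32.0% higher and 30.9% lower there. In Trim71-/- against control, 27 fell and 3 rose with Cas9, where 19.1% of all genes were called lower and 17.1% higher. With Tnrc6a 30 fell and 4 rose (median -1.14), against 19.0% and 20.0% of all genes. The list contains the Zscan4 genes and was drawn up with earlier results of these data known.

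The 4 genes of that list that fell with Tnrc6a in control were Nr5a2, Dppa4, Dppa2 and Zfp951. Nr5a2, a nuclear receptor of pluripotent cells, stood at 126 CPM with Cas9 and 90.8 with Tnrc6a (log2 fold change -0.47, SE 0.04, edgeR adjusted p = 1.32e-13). Dppa4, a chromatin factor that acts upstream of the 2-cell program, went from 89.8 to 59.8 CPM (-0.59, SE 0.05, adjusted p = 2.33e-14). Its partner Dppa2 went from 127 to 118 CPM (-0.11, SE 0.04, adjusted p = 0.0240), and the zinc finger gene Zfp951 from 81.9 to 61.3 CPM (-0.42, SE 0.05, adjusted p = 2.11e-10). In Trim71-/- cells with Tnrc6a, Dppa2 fell further by 0.80 (SE 0.04, adjusted p = 1.54e-19) while Nr5a2 rose by 0.73 (SE 0.04, adjusted p = 2.66e-19). Duxf3, a transcription factor gene reported as an activator of the 2-cell-like state, was named after its values were seen. It stood at 0.19 CPM in Cas9 control, 0.81 in Tnrc6a control and 0.31 in Tnrc6a Trim71-/-.

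Of 37 genes reported to hold the 2-cell-like state down, 24 fell, 5 rose and 8 were not called with Tnrc6a in control cells, where 33.1% of all genes were called lower and 30.4% higher. The Trim71-/- cells had 23 that fell and 4 that rose, against 30.9% and 32.0% of all genes (edgeR; medians -0.19 in both). Trim28, the corepressor of zinc finger repressors, stood at 2382 CPM with Cas9 and 1631 with Tnrc6a in control (log2 fold change -0.55, SE 0.03, adjusted p = 2.58e-18). Ncl, the nucleolar protein nucleolin, went from 4872 to 3499 CPM (-0.48, SE 0.04, adjusted p = 2.27e-14), Rif1, a replication timing factor, from 594 to 439 CPM (-0.44, SE 0.07, adjusted p = 1.25e-04), and Zfp42 (Rex1) from 644 to 417 CPM (-0.63, SE 0.03, adjusted p = 4.95e-20). Between genotypes 11 fell and 5 rose in Trim71-/- with Cas9, where 19.1% of all genes were called lower and 17.1% higher, and without Cas9 Trim71-/- replicate 1 these were 6 and 4. With Tnrc6a 12 fell and 7 rose, against 19.0% and 20.0% of all genes, or 18 and 6 with relative log expression factors. The shares that rose lie near those of all genes. With Tnrc6a, Zfp42 rose by 1.21 (SE 0.03, adjusted p = 1.32e-29) and Ncl by 0.28 (SE 0.04, adjusted p = 5.69e-08) in Trim71-/- cells, while Trim28 went lower by -0.22 (SE 0.03, adjusted p = 4.04e-07).

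**Figure D3:**
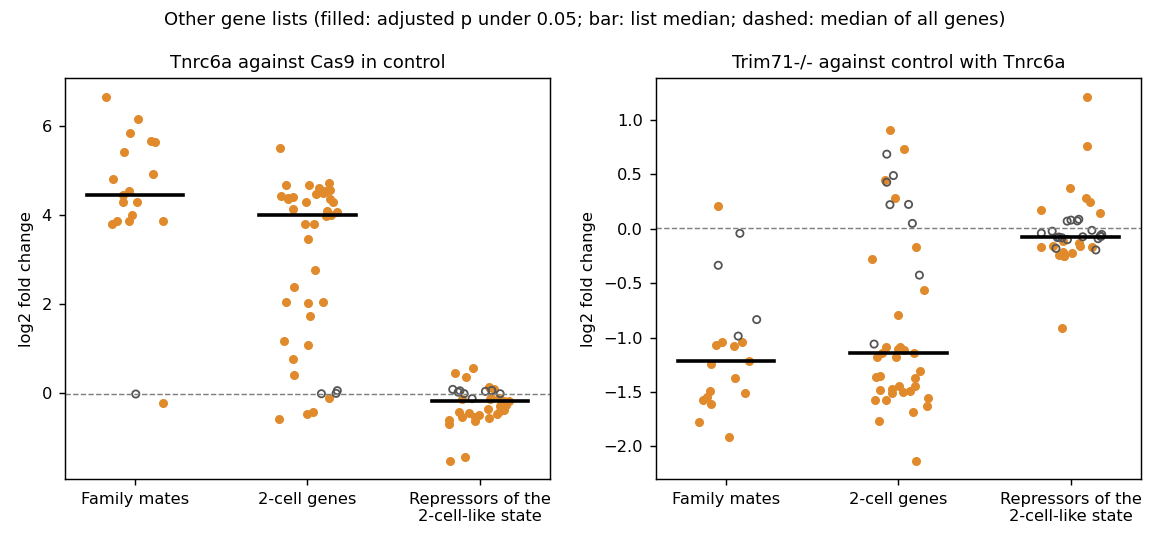
Fitted log2 fold changes of tested genes that are not among the 8, in the family mates (19), the 2-cell list (42) and the list of repressors (37). The left panel shows Tnrc6a against Cas9 in control and the right panel Trim71-/- against control with Tnrc6a. Filled points passed an adjusted p of 0.05, bars are list medians and the dashed line is the median of all genes. Family mates have medians of 4.46 on the left and -1.21 on the right.

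The difference of the Tnrc6a effect between genotypes was tested directly. The interaction was called higher for 4.68% and lower for 2.25% of all genes (edgeR), 958 and 461 genes, higher meaning a log2 change with Tnrc6a that was more positive, or less negative, in Trim71-/- cells. With relative log expression factors these were 768 and 613 genes. They were 548 and 511 without Tnrc6a control replicate 1, 543 and 519 without Tnrc6a control replicate 2, and 584 and 521 without Tnrc6a Trim71-/- replicate 2, so the size of the excess of higher calls depends on single libraries. Of the 2-cell list 16 were higher and 3 lower, and 3 of the 19 family mates were higher. Of the repressors 2 were higher and 2 lower (1 and 4 with relative log expression factors), 4 calls that became 7 without Tnrc6a control replicate 2 and 2 without Tnrc6a Trim71-/- replicate 3. Eif1ad7, of a family of translation factor copies, had a log2 interaction of 1.72 (SE 0.18, adjusted p = 5.78e-09): it went from 6.52 to 167 CPM with Tnrc6a in control and from 0.914 to 78.6 CPM in Trim71-/- cells.

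Markers of other cell types moved in the same comparisons. The 8 stem cell markers summed to 5622 to 5674 CPM in Cas9 control, 6669 to 6803 in Cas9 Trim71-/-, 3577 to 3615 in Tnrc6a control and 5307 to 5401 in Tnrc6a Trim71-/-, so the defining markers of the labelled cell type were present in every library. All 8 fell with Tnrc6a in control (edgeR; median log2 fold change -0.63), where 33.1% of all tested genes were called lower and 30.4% higher. All 6 trophoblast markers found rose there, and they summed to 29.2 to 31.6 CPM in Cas9 control, 31.0 to 35.6 in Cas9 Trim71-/-, 215 to 252 in Tnrc6a control and 119 to 123 in Tnrc6a Trim71-/-. All 7 primitive endoderm markers rose as well, with sums of 72.7 to 77.3, 12.8 to 15.0, 157 to 166 and 25.4 to 30.6 CPM in the same order of groups. The 3 fibroblast markers found, of 6, summed to 7.44 to 11.2, 10.8 to 11.9, 13.3 to 15.0 and 16.3 to 17.4 CPM in that order. Of these markers, 2 were called higher with Tnrc6a in control and 3 in Trim71-/- cells, where 32.0% of all genes were called higher. The other markers were less uniform with Tnrc6a in Trim71-/- cells. There 6 of the 8 stem cell markers fell and 4 of the 6 trophoblast markers rose. Of the 7 primitive endoderm markers 6 rose and 1 fell, where 30.9% of all genes were called lower. Elf5 was the trophoblast marker not in the table, and none of the markers found was at 0 in a group mean. The part these cell types have in the levels of the 8 genes was not tested.

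Genes next to the 8 were examined in the same fit. Within 200 kb of 7 of them lay 61 other tested genes, of which 44 rose with Tnrc6a in control, where 30.4% of all tested genes did, and 35 rose over 2-fold, against 11.0% of all tested genes. Some of these neighbours are family mates described above, and a neighbour too can pass the filter on low counts through the Tnrc6a groups alone. Such a gene could hardly be called lower with Tnrc6a, so these counts are descriptions. Zfp352 had no tested gene within that distance. Around Tdpoz4 all 12 tested neighbours rose, with fitted log2 fold changes from 3.63 to 5.65, though 8 of the 12 had at most 3 counts in Cas9 control. Tdpoz4 shared 31.0% of its 50-base stretches with the neighbour Gm5541, so reads of such near-copies may be split between them. The nearest were Gm5773 on the left (3.63, SE 0.60, edgeR adjusted p = 1.45e-06) and Tdpoz3 on the right (4.80, SE 0.45, adjusted p = 1.80e-12).

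Spopfm1 stood at an edge of that cluster. The 8 tested genes on its left rose by at least 3.17 on the log2 scale, while the 5 on its right lay between -0.51 and 0.93. Of these 13 neighbours, 4 had at most 3 counts in Cas9 control, all of them on the left. On the left the nearest was Gm9141, with 2 counts in Cas9 control and 47 in Tnrc6a control. On the right it was Them4, an acyl-CoA thioesterase gene (0.55, SE 0.11, edgeR adjusted p = 4.90e-05).

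In the Tcstv cluster the risers were interleaved with genes that moved little. Around AF067061, 7 of 9 neighbours rose, 6 of them over 2-fold: the nearest were Gm21731 on the left (3.02, SE 0.54, edgeR adjusted p = 6.18e-06) and BC147527 on the right, which went from 3 counts in Cas9 control to 406 in Tnrc6a control. Around Tcstv1, 4 of 9 rose. Gm21761 on its right rose by 4.93, while Gm21358 on its left did not pass the test (0.11, SE 0.50, adjusted p = 0.859). Around D13Ertd608e, 4 of 8 rose, and AF067063 on its left had 2 counts in Cas9 control and 96 in Tnrc6a control. Hmgcs1, a cholesterol synthesis gene at the edge of both windows, fell (-0.39, SE 0.04, adjusted p = 7.00e-12).

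Tmem92, which lies outside the Tcstv cluster and the Tdpoz and Spopfm cluster, had neighbours that rose with it. Whether it has family mates among them was not tested. Gm11546 on its right went from 0.137 to 1.13 CPM (2.98, SE 0.47, edgeR adjusted p = 7.09e-07) and Gm11545 on its left from 0.124 to 1.08 CPM (3.06, SE 0.48, adjusted p = 4.39e-07). Of 12 neighbours 5 rose over 2-fold, with fitted values up to 4.55. In Trim71-/- cells with Tnrc6a 5 of the 12 fell, not all of them risers, and 1 rose. Of all genes, 19.0% were called lower there and 20.0% higher. Gm11546 fell there by 2.47 (adjusted p = 8.92e-06), beside the -2.43 of Tmem92. The neighbour with which Tmem92 shared its 50-base stretches, Gm11544, had 1 count in Cas9 control and 36 in Tnrc6a control.

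Spz1 was flanked by genes with other patterns. Serinc5 on its right, a serine incorporator gene, rose by 0.63 (SE 0.09, edgeR adjusted p = 1.41e-07), and Zfyve16 on its left, an endosomal protein gene, by 0.37 (SE 0.08, adjusted p = 9.35e-05). Only 1 of the 6 rose over 2-fold, and the whole range was -0.50 to 1.03.

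**Figure D4:**
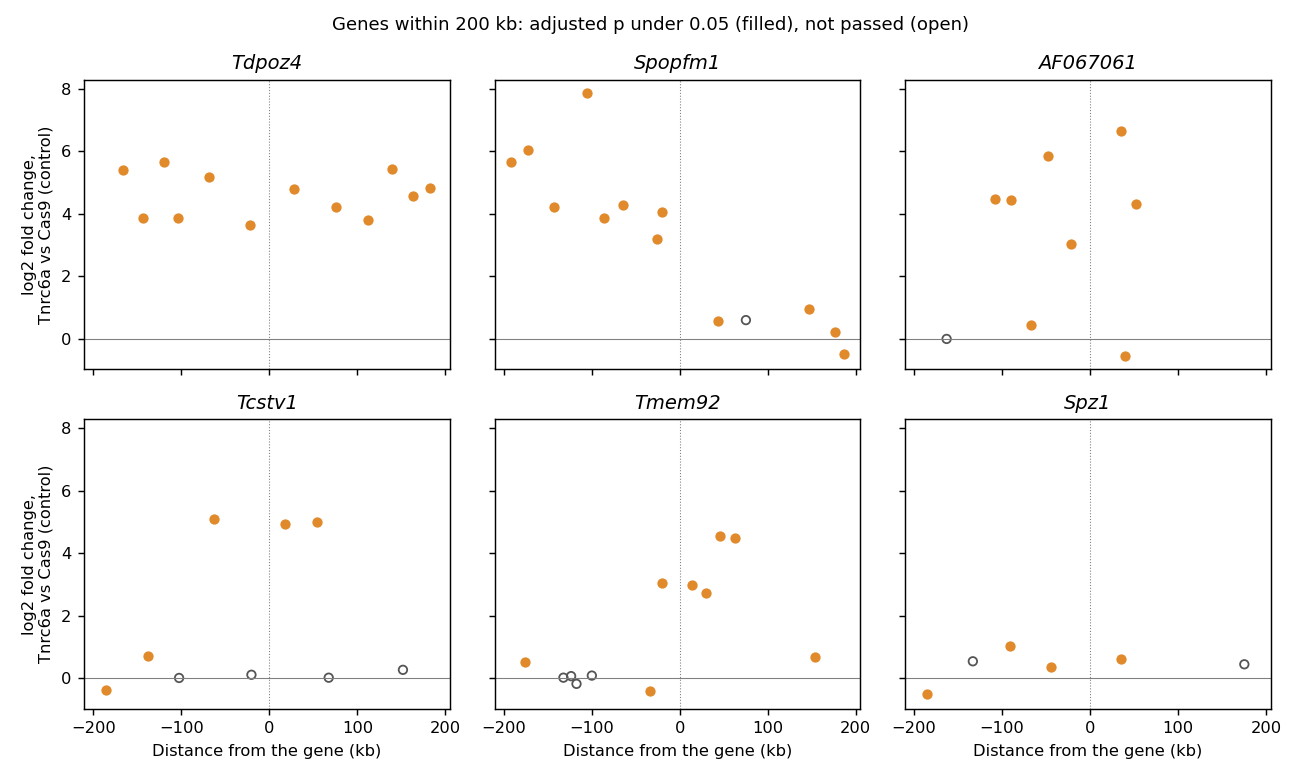
Fitted log2 fold change of Tnrc6a against Cas9 in control for tested genes within 200 kb of 6 of the 8 genes, against distance in kb (left and right as in the genome). Filled points passed an adjusted p of 0.05, and members of the 8 are left out. High points are fitted values that rest on few Cas9 counts. All points around Tdpoz4 lie above 3.6, those of Spopfm1 drop on its right, and those of Spz1 stay at or below 1.03.

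The genes whose profile over the 12 libraries lay nearest to the median profile of the 8 were looked for among 16732 genes with a mean of at least 1 CPM, by the mean absolute difference of log2 CPM (prior count of 2) after centring each gene. The median gene lay 2.39 away, and 106 genes lay as near as the farthest of the 8. The nearest were Eif1ad3 (0.16), Gm48388 (0.21), Gm2056 (0.22), Eif1ad16 (0.24), Eif1ad19 (0.24), Usp17lc (0.26), Usp17ld (0.26) and Ankrd22 (0.26). The Eif1ad genes are copies of translation initiation factor 1A, and the Usp17l genes encode deubiquitinating enzymes. Eif1ad3 stood at 7.69 CPM in Cas9 control, 2.06 in Cas9 Trim71-/-, 161 ± 6.01 in Tnrc6a control and 74.6 ± 1.02 in Tnrc6a Trim71-/-. Among the 8, Tcstv1 (0.21) and Spopfm1 (0.25) were nearest to their common median and Tmem92 (0.53) and Spz1 (0.68) farthest.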

How the data were processed

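Stranded total RNA libraries were aligned with STAR 2.7.3a after bcl2fastq 2.20, with builds GRCm38 and mm10, per the submitters' processing notes. The table the authors deposited holds raw counts for each gene, RPKM values per the file headers, and a gene length that carries the name quasr in the file headers. The sources used here do not give the counting settings, the strand setting or the annotation release. No per-sample column was left unused. GENCODE M21 gave positions, and names for 3357 of the genes.

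The counts entered edgeR 4.0.16 in R 4.3.3 with filterByExpr by group, TMM scaling (trimmed mean of M values) and a robust quasi-likelihood fit of 1 mean per group to all 12 libraries. Two-sided p-values received Benjamini-Hochberg adjustment across all 20486 tested genes, and a call needed an adjusted p under 0.05. Levels in CPM carry TMM factors, and all levels are mean ± SD of 3 libraries. The fit was tested on simulated data. Replicate pairs differed beyond sampling noise (chi-square per degree of freedom from 2.48 to 7.46 over genes with at least 10 counts in the pair), so each library counted once. A group with 0 counts gives a bound from a floor of 3 counts, with the other group's count taken as fixed. A group with 1 to 3 counts gives a ratio with an exact 95% interval. Both cover counting error only, since the reads carry no molecular identifiers.

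The 8 genes, the gene lists and the motifs were chosen with earlier results of these data known. From each list the text names up to 4 called genes with the highest mean CPM in a comparison, and of the neighbours within 200 kb the nearest on each side. Genes that were named after their values were seen are Duxf3, Gm21762, Tcstv3 in control, Hmgcs1, Gm5541, Gm11544 and Spopl where it was not called. Coding identity came from pairwise global alignment in Biopython 1.88. Alternatives were relative log expression and upper-quartile factors, other filters, DESeq2 1.42.0, a replicate block, a fit on the compared groups only, and each library left out.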

Additional observations from a re-analysis of the deposited data

Results flagged for a closer look

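The effect of Tnrc6a differed between control and Trim71-/- cells for 11 named genes that are not among the 8, by the interaction term of the edgeR fit (positive where the log2 change with Tnrc6a was higher in Trim71-/- cells). Groups of 3 libraries are too small for a check of single outlying libraries.

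Among family mates the interaction was 2.60 (SE 0.64, adjusted p = 0.00647) for Gm21761, 5.32 (SE 1.28, adjusted p = 0.00691) for Gm20767 and 0.24 (SE 0.07, adjusted p = 0.0201) for Spop. Gm20767 had 0 counts in Cas9 Trim71-/-, so its fitted value depends on the fit's prior count and is no bound. Gm21761 stood at 0.0403 CPM in that group, so its fitted value rests on few counts as well.

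Among 2-cell genes it was 1.72 (SE 0.18, adjusted p = 5.78e-09) for Eif1ad7, 0.78 (SE 0.13, adjusted p = 3.15e-05) for Eif1ad3, 0.25 (SE 0.06, adjusted p = 0.00316) for Nr5a2 and -0.22 (SE 0.06, adjusted p = 0.0157) for Dppa2.

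Among reported repressors of the 2-cell-like state it was 0.37 (SE 0.05, adjusted p = 4.51e-07) for Zfp42, -0.22 (SE 0.06, adjusted p = 0.0117) for Lin28a, 0.21 (SE 0.06, adjusted p = 0.0257) for Max and -0.31 (SE 0.07, adjusted p = 0.00249) for Rcor1.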

How the results depend on the processing

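The log2 fold changes of the 8 genes for Tnrc6a against Cas9, and for Trim71-/- against control with Tnrc6a, kept their direction under all alternatives run. Values near 0 or from few counts did not: Trim71-/- against control with Cas9 for Spz1 was 0.92 and -1.13 without Cas9 control replicate 2, the bound of D13Ertd608e there was -0.08 and 0.86 without Cas9 control replicate 1, and the interaction of Tdpoz4 was -0.11, with -0.80 to 0.58 when 1 library was left out. The fall of Spz1 in Trim71-/- cells with Tnrc6a ranged from -0.65 to -0.41 and that of Tmem92 from -2.49 to -2.39. The value of Zfp352 for Tnrc6a against Cas9 in Trim71-/- cells, which rests on 4 Cas9 counts, went from 6.18 to 6.43 without Cas9 Trim71-/- replicate 1. The floor bound of D13Ertd608e there lay between 5.08 and 5.31 on the log2 scale without 1 of the Cas9 Trim71-/- libraries, because the floor is then set against a smaller total.

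Of the counts of called genes, that of family mates with Tnrc6a in Trim71-/- cells was 17, 11 with a filter of at least 1 CPM in at least 3 libraries, because fewer genes were tested, and 10 on the compared groups only. That of family mates in Trim71-/- with Cas9 was 7, and 3 on the compared groups only. The cause of the drop on the compared groups was not tested. With 1 library left out, the repressors called in Trim71-/- with Cas9 ranged from 10 to 15 (16 with all libraries), and those called for the interaction from 2 to 7. The total called for the interaction ranged from 1059 to 1403 with 1 library left out (1419 with all), but those called higher fell from 958 to as few as 543. The family mates that rose with Tnrc6a in control were 17, and 11 with the 1 CPM filter, where fewer genes were tested. The other totals of calls stayed within 1.5 times.

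The replicate numbers did not pair the wells: correlations of same-numbered deviations ran from -0.12 to 0.14, and not every library correlated best with its own number. With a replicate block 12901 genes were called for Tnrc6a against Cas9 in control, against 13007 without it, and no list count moved over 1.5 times. Few reads limit all values of the 8 genes in the Cas9 libraries, where a difference between genotypes was not detectable at this depth for Spz1 and D13Ertd608e. That of Tdpoz4 was uncertain as well (log2 fold change -1.13, SE 0.73, with overlapping libraries).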
